A study of Mus musculus with 6 samples.

Results

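The 8 genes Hmox1, Srxn1, Nqo1, Gclm, Gclc, Txnrd1, Slc7a11 and Osgin1, targets of the transcription factor NRF2, were followed through single-cell RNA sequencing of orthotopic mouse pancreatic tumours. They are 8 of the 32285 genes counted in these data, and all 8 symbols were found. The genes were selected from known NRF2 targets with earlier results of these data known, and the measured values behind the choice are not recorded. Their levels in the cell types are therefore descriptions and no independent evidence. The same holds for differences between the labelled groups and between cell states within a class.

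KPC cells, a line of mouse pancreatic cancer cells, were injected into the pancreas of C57BL/6 mice. They held an empty vector in one group (OE-Vector) and overexpressed mouse Mlkl in the other (OE-MLKL) by label. Both groups share this host and these parental cells, and tumours were harvested 4 weeks after injection. The labels name 3 tumours a group, and the count matrices of 1 OE-Vector library and 3 OE-MLKL libraries were used. The matrices of OE-Vector 2 and 3 were not analysed here, so that any difference from OE-Vector 1 cannot be told apart from a difference between tumours. Mlkl, the executioner of necroptosis, gave 16.4 CPM (UMIs per 1000000 UMIs) in cancer cells of the library labelled OE-Vector and 8.62, 12.96 and 19.9 CPM in the libraries labelled OE-MLKL 1, 2 and 3. Overexpression therefore does not show in the counts of this gene, since OE-Vector 1 lay between OE-MLKL 2 and 3, and every library name and direction that follows refers to the label only. Whether construct transcripts are counted under Mlkl was not established. A UMI is a tag that counts a captured transcript once.

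NRF2, encoded by Nfe2l2, is held low by KEAP1, which marks it for destruction until oxidants or electrophiles modify KEAP1. NRF2 then binds antioxidant response elements beside its target genes, while the haem-sensing repressor BACH1 occupies the same elements. The targets supply cystine, glutathione, thioredoxin reduction and haem breakdown, and the pathway is known for protecting both pancreatic cancer cells and activated myeloid cells from oxidants.

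The antioxidant response element was looked for in the promoters because it is the sequence through which these genes are grouped. The core searched was TGACNNNGC, on both strands, in windows of 300 bases that run from 250 before to 50 after a gene start (RefSeq, GRCm38.p6). Windows were present for 6 of the 8 genes, namely Gclm, Nqo1, Osgin1, Slc7a11, Srxn1 and Txnrd1. The core was found in 3 of these 6, which are shown with 8 bases on each side and the core in capitals, and in 14.0% of all genes with a window.

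Gclm, chr3:122245415-122245439, minus strand: gtgagagtTGACGGTGCgcccggga
Srxn1, chr2:152105544-152105568, minus strand: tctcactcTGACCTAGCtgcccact
Txnrd1, chr10:82859106-82859130, minus strand: tgtcagaaTGACAAAGCaaaaatcc

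The Gclm match lies before the gene start, the Srxn1 match within the 50 bases after it, and the Txnrd1 match before 1 of 3 annotated starts. Of all genes with 3 windows, 28.0% held the core. A match is a run of letters and not a measured site, and no match says only that these letters are absent from the window.

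Cells were assigned to 4 classes by marker genes alone, which gave 20326 cancer cells, 9454 macrophages, 24099 neutrophils and 3016 T cells over the 4 libraries, from 74545 cells that passed the filter. All 12 cancer, 10 macrophage, 11 neutrophil and 12 T cell markers were detected in their class in every library. The gates use these same markers, so that their detection there is no independent evidence. The cancer class rested mainly on Krt8 (458 to 744 CPM) and Krt18 (369 to 741 CPM), which reached at most 111 and 67.2 CPM in the other classes. Epcam stood at only 3.35 to 23.1 CPM and Cdh1 at 3.64 to 8.48 CPM. These did not mark the class, since T cells reached 23.6 CPM of Epcam and 20.8 CPM of Cdh1. Cldn7 did not either, at 5.78 to 17.0 CPM against 6.86 to 18.3 CPM in neutrophils. Cldn3 (from 1.19 CPM), Cldn4 (from 0.420 CPM) and Msln (from 8.78 CPM) overlapped too, with up to 1.41 and 8.92 CPM of Cldn3 and Msln in neutrophils and 1.74 CPM of Cldn4 in T cells. The study split epithelial cells into cancer and duct cells by copy number, which was not done here. T cells of OE-Vector 1 also held 3923 CPM of the summed NK markers, against 455 to 1829 CPM in the OE-MLKL libraries. Total depth was 150591289 to 169978362 UMIs per library. Any pair of libraries shared 73 to 134 cell barcodes. Median depths were 12697 to 26415 UMIs per cancer cell, 4128 to 8657 per macrophage, 749 to 1459 per neutrophil and 2616 to 3596 per T cell, with OE-Vector 1 the deepest in cancer cells, macrophages and T cells. Levels are CPM of the UMIs summed over the cells of a class, and intervals are exact Poisson intervals at 95% that cover counting error only. Since droplets also hold free RNA, levels in barcodes with at most 100 UMIs are given beside those in cells.

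The leading cell class differed between genes. Hmox1 stood highest in macrophages, Slc7a11 and Osgin1 in neutrophils, and Gclm and Gclc in cancer cells. For these 5 genes the lowest library of the leading class lay above the highest library of every other class. The share of all genes that set a class apart in this way was not counted. Srxn1 and Txnrd1 were also highest on average in cancer cells, but their ranges overlapped with those of other classes. Nqo1 was almost absent.

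**Figure D1:**
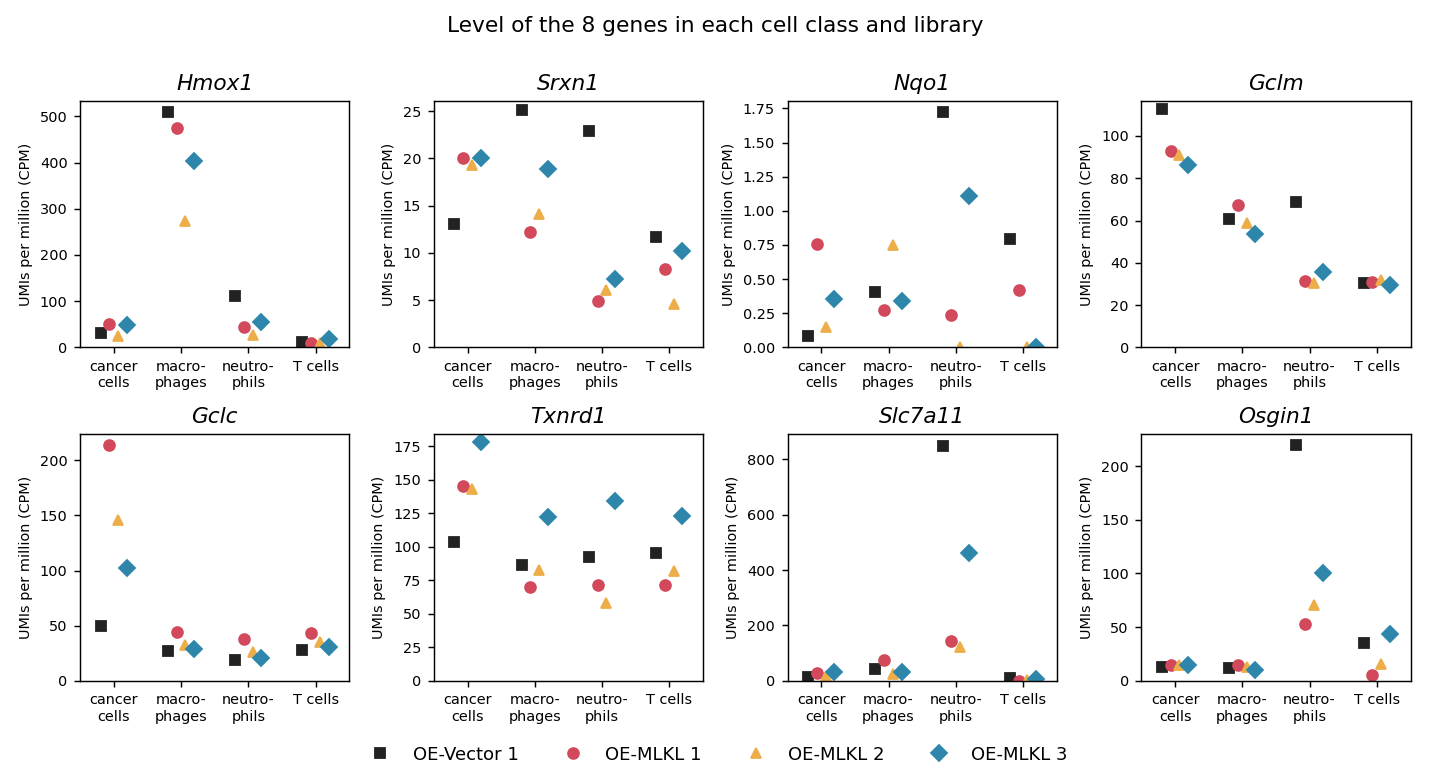
Level of each gene (CPM, linear axis from 0) in cancer cells, macrophages, neutrophils and T cells, 1 point per library. Hmox1 stands apart in macrophages, from 273 to 509.5 CPM, Slc7a11 and Osgin1 stand apart in neutrophils, and Gclc and Gclm in cancer cells.

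Hmox1 (ENSMUSG00000005413, chromosome 8 from 75093621 to 75100589) encodes haem oxygenase-1, which opens haem to biliverdin, iron and carbon monoxide. In macrophages it gave 509.5 CPM in OE-Vector 1 and 476, 273 and 404 CPM in OE-MLKL 1, 2 and 3. Neutrophils followed with 27.6 to 110.3 CPM and cancer cells with 24.7 to 50.5 CPM, and these neighbours overlapped. T cells held the least, 9.58 to 18.3 CPM. Free RNA held 68.4 to 141 CPM of Hmox1, so that only macrophages lay above the free RNA of their own library. Within macrophages the gene was unevenly spread, and the tenth of cells richest in it held 53.1% to 77.6% of its UMIs.

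Slc7a11 (ENSMUSG00000027737, chromosome 3 from 49892526 to 50443614, minus strand) encodes xCT, the exchanger that imports cystine for glutathione synthesis. In neutrophils it gave 849 CPM in OE-Vector 1 and 142, 120.4 and 463 CPM in OE-MLKL 1, 2 and 3. OE-MLKL 3 lay between OE-Vector 1 and the other OE-MLKL libraries. Macrophages held 23.0 to 74.3 CPM, cancer cells 13.8 to 33.4 CPM and T cells 0.833 to 8.32 CPM. Macrophages and cancer cells overlapped. Free RNA held 24.3 to 63.8 CPM. With every neutrophil thinned to 500 UMIs, 28.8% of neutrophils had a UMI of Slc7a11 in OE-Vector 1. The shares were 5.73%, 5.01% and 17.4% in OE-MLKL 1, 2 and 3, against 0.065% to 0.376% of T cells thinned in the same way. Unthinned, the neutrophil shares were 50.5%, 9.08%, 8.36% and 38.4%, and those of T cells 0.353% to 2.98%. The annotated span of Slc7a11 holds 5 other annotated genes, and whether UMIs in introns were counted is not known.

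Osgin1 (ENSMUSG00000074063, chromosome 8 from 119434124 to 119446256) encodes oxidative stress-induced growth inhibitor 1. In neutrophils it gave 219 CPM in OE-Vector 1 and 53.3, 70.7 and 100.02 CPM in OE-MLKL 1, 2 and 3, so that OE-Vector 1 lay above every OE-MLKL library. T cells gave 35.1, 5.83, 15.8 and 43.6 CPM in the same order of libraries, which was the widest relative spread of this gene in the 4 classes. Cancer cells held 12.7 to 15.1 CPM and macrophages 9.82 to 14.5 CPM, and these overlapped. Free RNA held 22.4 to 52.9 CPM, highest in OE-Vector 1.

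Gclc and Gclm encode the catalytic and modifier subunits of glutamate-cysteine ligase, the rate-limiting enzyme of glutathione synthesis. Gclc (ENSMUSG00000032350, chromosome 9 from 77754535 to 77794485) gave 49.4 CPM in cancer cells of OE-Vector 1 and 214, 146 and 102 CPM in those of OE-MLKL 1, 2 and 3. Its partner Gclm (ENSMUSG00000028124, chromosome 3 from 122245557 to 122270732) gave 113 CPM in OE-Vector 1 and 92.8, 91.0 and 86.4 CPM in OE-MLKL 1, 2 and 3. OE-Vector 1 therefore lay below every OE-MLKL library for Gclc, as for 33% of all genes tested in cancer cells, and above every one for Gclm. The share of all genes placed above was not counted, and neither gene passed the test between the labels given below. Cancer cells of OE-Vector 1 lay just below the 51.1 CPM of Gclc in the free RNA of their library, and those of the OE-MLKL libraries above theirs. Outside cancer cells Gclc held 18.5 to 43.8 CPM, below the free RNA of 51.1 CPM in OE-Vector 1 and of 157, 105 and 67.4 CPM in OE-MLKL 1, 2 and 3. In macrophages, neutrophils and T cells alike the libraries were ordered as in free RNA, from OE-MLKL 1 through OE-MLKL 2 and OE-MLKL 3 to OE-Vector 1. Cancer cells had the same order, and the part of free RNA in these levels was not tested. Gclm held 53.7 to 67.3 CPM in macrophages, 30.4 to 68.7 CPM in neutrophils and 29.4 to 32.1 CPM in T cells, against 62.8 to 82.3 CPM in free RNA.

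Srxn1 and Txnrd1 act in thiol reduction. Srxn1 (ENSMUSG00000032802, chromosome 2 from 152105516 to 152111376) encodes sulfiredoxin, which repairs overoxidised peroxiredoxins. It gave 13 to 20.1 CPM in cancer cells, 12.2 to 25.1 CPM in macrophages, 4.93 to 22.9 CPM in neutrophils and 4.58 to 11.7 CPM in T cells, with overlap between all neighbours in this order. Txnrd1 (ENSMUSG00000020250, chromosome 10 from 82833951 to 82897712) encodes cytosolic thioredoxin reductase. It gave 103 to 178 CPM in cancer cells, 71.2 to 123 CPM in T cells, 69.6 to 122 CPM in macrophages and 58.3 to 134 CPM in neutrophils, and it was the most even of the detected genes across classes. OE-MLKL 3 had the highest Txnrd1 level in all 4 classes. Free RNA held 18.0 to 24.5 CPM of Srxn1 and 96.8 to 119.9 CPM of Txnrd1, and T cells lay below it in every library for both genes, except for Txnrd1 in OE-MLKL 3 (123 against 104 CPM). Srxn1 in cancer cells was also below it in OE-Vector 1 (13 against 20.6 CPM) and OE-MLKL 1 (20.1 against 24.5 CPM), and in macrophages it was below it in OE-MLKL 1 and 2. Txnrd1 was above it in cancer cells of all 4 libraries, and in macrophages and neutrophils in OE-MLKL 3 alone.

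Nqo1 (ENSMUSG00000003849, chromosome 8 from 107388225 to 107403206, minus strand) encodes the quinone reductase that is often read as the standard NRF2 target. Cancer cells of OE-Vector 1 held 7 UMIs of it in 2658 cells, and those of OE-MLKL 1, 2 and 3 held 80, 16 and 28. The 80 UMIs of OE-MLKL 1 came from 31 of its 6889 cells. Neutrophils held 13, 1, 0 and 11 UMIs, and 0 of 8029 cells allows a share of up to 0.0374% with a UMI. The highest level in any class and library was 1.72 CPM, and free RNA held 0.372 to 0.960 CPM, so that no order of the classes can be read for this gene at this depth.

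Levels of the 3 regulators set these targets in context. Nfe2l2 itself gave 150 to 216 CPM in cancer cells, 202 to 382 CPM in macrophages, 189 to 405 CPM in neutrophils and 22.5 to 58.2 CPM in T cells. Keap1 gave 42.3 to 63.9 CPM in cancer cells and macrophages, 35.4 to 57.5 CPM in T cells and 12.98 to 30.95 CPM in neutrophils, and its neutrophil range overlapped with no other class. Bach1 was higher in macrophages (109 to 178 CPM) and neutrophils (138 to 194 CPM) than in cancer cells (27.0 to 49.1 CPM) and T cells (15.4 to 29.1 CPM), without overlap between these pairs of classes.

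The genes with the most similar pattern were found from Pearson's r of log2(CPM + 1) over the 16 sums of 4 classes in 4 libraries, which share libraries and depth, and are given as a description. Hmox1 was most like Atp6v1a (r = 0.981), a subunit of the lysosomal proton pump, Psap (0.976), the precursor of the saposins, and Vps26a (0.966), a retromer subunit. Gclm was most like Gdf15 (0.985), a stress-induced cytokine, Mob3b (0.941) and 9530068E07Rik (0.940). Gclc was most like Zhx3 (0.957), Pdp1 (0.949) and Avpi1 (0.949). Slc7a11 was most like Pbx2 (0.965), Tnfaip2 (0.959) and Zfp36 (0.957), an RNA-binding protein that destabilises cytokine transcripts, and Osgin1 was most like AI467606 (0.951), Snrk (0.941) and Narf (0.938). Srxn1 and Txnrd1 had looser neighbours, Cpt1a (0.865), Plekhn1 (0.838) and Slc3a2 (0.830) for Srxn1 and Rabgap1 (0.885) and Far1 (0.872) for Txnrd1. Slc3a2 encodes the chain with which xCT pairs. Bid (0.685) and Smox (0.671) were near Nqo1, over UMI counts too low to rank.

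The labelled groups were then compared within each class, to see where the targets differed between OE-MLKL and OE-Vector tumours. UMIs were summed per library and class, and edgeR's quasi-likelihood test was run on the sums with Benjamini-Hochberg adjustment over all genes. The spread could be estimated from the OE-MLKL libraries alone, and a single OE-Vector library is taken to scatter as much as they do. Fewer cells expressing a gene and less RNA per cell cannot be told apart in such sums. No target passed in any class. Of all genes tested, 0.00577% were called in cancer cells (1 of 17326), 0.0294% in macrophages (4 of 13625), 0% in neutrophils (0 of 12822, with 1037 at an unadjusted p under 0.05) and 0.0523% in T cells (6 of 11471). Nqo1 set aside for its low counts, the largest difference was that of Srxn1 in neutrophils, which are described first.

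In neutrophils 5 of the 7 targets with usable counts, namely Hmox1, Srxn1, Gclm, Slc7a11 and Osgin1, were higher in OE-Vector 1 than in all 3 OE-MLKL libraries, an arrangement that 15.9% of all genes tested showed. Srxn1 gave 22.9 CPM (95% interval 19.6 to 26.6, from 173 UMIs) in OE-Vector 1 and averaged 6.07 ± 1.16 CPM (SD, n = 3) across the libraries labelled OE-MLKL. The log2 fold change was -2.15 ± 0.32 (SE). It ranked 6 of 12822 genes by unadjusted p, yet its adjusted p by edgeR was 0.601. Osgin1 was lower at -1.80 ± 0.37, Hmox1 at -1.64 ± 0.39, Gclm at -1.33 ± 0.27 and Slc7a11 at -2.07 ± 0.70 on the log2 scale, and each had the same adjusted p of 0.601. Gclm gave 68.7 CPM in OE-Vector 1 and 32.5 ± 2.71 CPM (SD, n = 3), and Hmox1 gave 110.3 CPM and 41.9 ± 13.3 CPM (SD, n = 3). The median log2 fold change was -1.72 over all 8 targets, Nqo1 included, and 0.04 over all genes tested. Gclc went the other way, with 18.5 CPM in OE-Vector 1 and 37.6, 26.1 and 20.5 CPM in OE-MLKL 1, 2 and 3. Gclc, Hmox1 and Gclm lay below the free RNA of the same library in all 4 libraries, Srxn1 did so in the 3 OE-MLKL libraries, and Slc7a11 and Osgin1 lay above it in all 4. Txnrd1 gave 92.7 CPM in OE-Vector 1, within the OE-MLKL range of 58.3 to 134 CPM.

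The neutrophil result depended on OE-MLKL 3. Without this library, and with the spread resting on 2 libraries, the 5 targets that were higher in OE-Vector 1 all passed by edgeR, in a fit that called 14.7% of all genes. Slc7a11 then stood at -2.91 ± 0.26 (adjusted p by edgeR 2.96e-05), Srxn1 at -2.27 ± 0.29, Osgin1 at -2.04 ± 0.23, Hmox1 at -1.84 ± 0.28 and Gclm at -1.37 ± 0.22. With DESeq2 on all 4 libraries Srxn1 (adjusted p 0.0360) and Osgin1 (adjusted p 0.0284) passed, where 0.632% of all genes did. OE-MLKL 3 differed from the other OE-MLKL libraries in median neutrophil depth too, with 1459 UMIs against 749 and 785, beside 1222 in OE-Vector 1. The part of depth in the result was not tested beyond the alternatives given here.

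A pair of neutrophil states were separated by marker UMIs, cells led by the chemokines Ccl3 and Ccl4 and cells led by the maturity genes Retnlg and Mmp8. Their shares differed strongly between libraries. Ccl3-Ccl4 cells made up 31.7% of neutrophils in OE-Vector 1, against 4.90%, 7.52% and 19.3% in OE-MLKL 1, 2 and 3. Retnlg-Mmp8 cells made up 18.9%, 53.7%, 35.1% and 42.8% in the same order of libraries. Within each state the 5 targets were higher in OE-Vector 1 than in every OE-MLKL library, and none passed the test. Of all genes tested, 14% were placed this way in Ccl3-Ccl4 cells, 14% in Retnlg-Mmp8 cells and 6.95% in both states. The edgeR test called 0.136% of them in Ccl3-Ccl4 cells (13 of 9563) and 0% in Retnlg-Mmp8 cells (0 of 10551, with 1034 at an unadjusted p under 0.05). The part of the state shares in the difference over all neutrophils was not tested. Within Ccl3-Ccl4 cells the log2 fold changes were -2.09 for Srxn1, -2.07 for Slc7a11, -1.82 for Gclm, -1.47 for Osgin1 and -1.44 for Hmox1, with adjusted p by edgeR of 0.0783 to 0.217. Within Retnlg-Mmp8 cells they were -1.43, -2.21, -0.99, -1.66 and -1.94 in the same order, with adjusted p by edgeR of 0.481 to 0.496. The counts behind these values could be small, and Srxn1 in Ccl3-Ccl4 cells rested on 105 UMIs in OE-Vector 1 and on 3, 7 and 20 in the OE-MLKL libraries. In Retnlg-Mmp8 cells it rested on 16 UMIs in OE-Vector 1 and on 10, 11 and 31, and there its counting intervals overlapped.

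**Figure D2:**
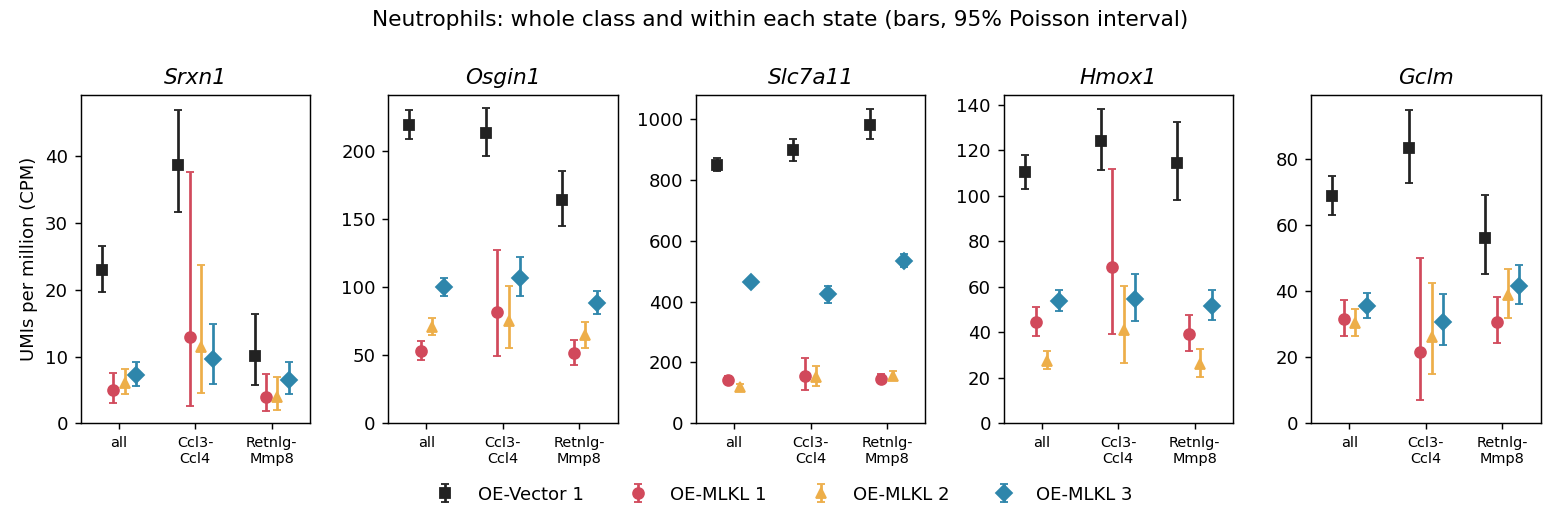
Levels (CPM, linear axes from 0) of 5 targets in all neutrophils and within the Ccl3-Ccl4 and the Retnlg-Mmp8 state, 1 point per library with its exact 95% Poisson interval. OE-Vector 1 lies above all OE-MLKL libraries for these targets, as it does for 15.9% of all genes in all neutrophils and for 14% in either state, and for Slc7a11 OE-MLKL 3 stands between it and the other OE-MLKL libraries.

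RNA of other cells was measured in the neutrophil sums. The 10 macrophage markers together gave 571 CPM in neutrophils of OE-Vector 1 and 322, 461 and 811 CPM in OE-MLKL 1, 2 and 3, against 15404 to 18199 CPM in macrophages. The 12 cancer markers gave 191 to 247 CPM. The part of RNA from other cells in the neutrophil differences was not tested. The 10 genes of the dissociation list summed to 18569 CPM in OE-Vector 1, within the OE-MLKL range of 15581 to 20488 CPM. The 8 genes of the integrated stress list summed to 1243 CPM in OE-Vector 1, just above 644 to 1202 CPM in the OE-MLKL libraries. The median log2 fold change in neutrophils was -0.46 over the dissociation list and -0.88 over the integrated stress list, beside 0.04 over all genes. The part of both lists in the result was not tested.

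In cancer cells most targets were higher in the tumours labelled OE-MLKL. Srxn1, Gclc, Txnrd1, Slc7a11 and Osgin1, which are 5 of the 7 targets with usable counts, were lower in OE-Vector 1 than in every OE-MLKL library, as were 33% of all genes tested. Gclc had the largest difference of these, 49.4 CPM against 154 ± 56.4 CPM (SD, n = 3) and a log2 fold change of 1.57 ± 0.56, with an adjusted p by edgeR of 0.995. Slc7a11 followed at 0.75 ± 0.39, Srxn1 at 0.50 ± 0.29 and Txnrd1 at 0.47 ± 0.29, and Gclm was lower at -0.42 ± 0.29, each with an adjusted p of 0.995. Srxn1 was tightly grouped, with 20.1, 19.3 and 20.04 CPM in the OE-MLKL libraries against 13 CPM. Gclm and Txnrd1 in cancer cells lay above the free RNA of the same library in all 4 libraries, Gclc in the 3 OE-MLKL libraries, Srxn1 in OE-MLKL 2 and 3, and Hmox1, Slc7a11 and Osgin1 in none. The median log2 fold change of the 8 targets was 0.49, beside 0.03 over all genes tested. Without OE-MLKL 3, Gclc passed at 1.85 ± 0.28 (adjusted p by edgeR 0.0173), where 3.58% of all genes did. Gclc differed in the same direction within cells high in Mgp and Dcn, at 1.77 ± 0.61, and within the other cancer cells, at 1.60 ± 0.57. The dissociation list summed to 5095 CPM in cancer cells of OE-Vector 1 and to 7740, 7126 and 11454 CPM in OE-MLKL 1, 2 and 3, and its part in these differences was not tested.

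**Figure D3:**
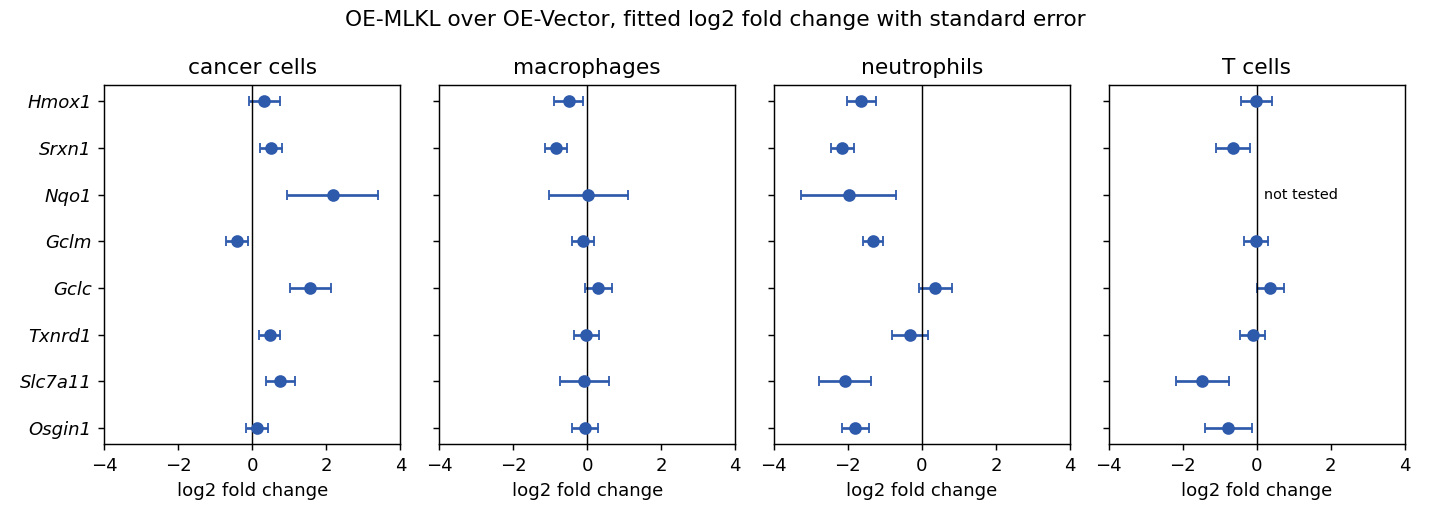
Fitted log2 difference between the labels (positive where OE-MLKL is higher) for each target, with the standard error as bars, in the 4 classes (1 OE-Vector and 3 OE-MLKL libraries). Neutrophils show Srxn1 at -2.15, Slc7a11 at -2.07, Osgin1 at -1.80, Hmox1 at -1.64 and Gclm at -1.33, cancer cells show Gclc at 1.57, and no value passed the test.

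In macrophages and T cells most differences between the labels were smaller than in neutrophils. Srxn1 in macrophages gave 25.1 CPM in OE-Vector 1 and 12.2, 14.1 and 18.9 CPM in the OE-MLKL libraries. Its log2 fold change was -0.84 ± 0.29 with an adjusted p by edgeR of 0.827. Hmox1 was at -0.50 ± 0.39 (adjusted p 0.892). These were the only targets highest in OE-Vector 1 there, where 18.5% of all genes were. The dissociation list summed to 4481 CPM in macrophages of OE-Vector 1 and to 8300, 6935 and 9160 CPM in OE-MLKL 1, 2 and 3, with a median log2 fold change of 0.71. The integrated stress list summed to 288 CPM, within the OE-MLKL range of 261 to 319 CPM, with a median of -0.74, beside 0.05 over all genes. The part of both lists in these differences was not tested. Gclm, Txnrd1, Slc7a11 and Osgin1 of OE-Vector 1 lay within the OE-MLKL range. Cells with at least 2 UMIs of Arg1 made up 64.6% of macrophages in OE-Vector 1 and 32.6%, 54.3% and 43.6% of those in OE-MLKL 1, 2 and 3. Among these cells Hmox1 of OE-Vector 1, at 612 CPM, lay within the OE-MLKL range of 305 to 799 CPM. Among cells without Arg1 it was the highest, at 269 CPM against 225, 203 and 119.96 CPM, and did not pass the test. The share of all genes placed that way among cells without Arg1 was not counted. In T cells OE-Vector 1 was highest for Srxn1 and Slc7a11, as for 18.2% of all genes, with Slc7a11 at 8.32 CPM against 0.833, 2.08 and 6.11 CPM, a log2 fold change of -1.47 ± 0.72 (adjusted p by edgeR 0.974). Srxn1 stood at -0.64 ± 0.47 and Osgin1 at -0.76 ± 0.63, both with an adjusted p of 0.999. Without OE-MLKL 3, Osgin1 (-1.64 ± 0.33, adjusted p 6.29e-04 by edgeR) and Slc7a11 (-2.43 ± 0.76, adjusted p 0.0420) passed in T cells, where 7.28% of all genes did. The summed T cell levels of both genes were below their free RNA in every library except for Osgin1 in OE-MLKL 3, which gave 43.6 CPM beside 34.2 CPM in free RNA. Slc7a11 had a UMI in as few as 0.353% of the T cells of a library, so that its call rests on few UMIs. T cells also held 94.6 to 397 CPM of the neutrophil marker S100a9, and the part of RNA from neutrophils in these calls was not tested.

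Whether the difference between the labels was itself unequal among the 4 classes was tested with the interaction of class and group over the 16 sums. These sums come from 4 tumours, and the sums of a tumour are taken as independent beyond a term for the library. With a single OE-Vector library the spread again comes from the OE-MLKL libraries alone. No target of the 7 tested passed (Nqo1 was too low to test), and 0.0926% of all genes tested did (13 of 14033). Srxn1 came nearest, at rank 17, with an unadjusted p of 7.32e-05 and an adjusted p by edgeR of 0.0604. Its log2 difference in neutrophils was 2.71 below that in cancer cells. Hmox1 had an unadjusted p of 3.82e-04 (adjusted 0.119), Gclc 5.07e-04 (0.140) and Gclm 0.00156 (0.216), all by edgeR. DESeq2 called Hmox1, Srxn1, Gclm and Gclc, where 1.85% of all genes passed, and edgeR without OE-MLKL 3 called all 7 targets tested, where 9.94% of all genes passed.

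Of the other 63 genes of the pathway (regulators, glutathione, thioredoxin and peroxidases, NADPH supply, iron and haem, detoxification), 0 of 63 tested passed in cancer cells, 0 of 62 in macrophages, 0 of 62 in neutrophils and 0 of 60 in T cells. Their median log2 fold change in neutrophils was -0.27, beside 0.04 over all genes, and in cancer cells it was -0.01. Nfe2l2 in neutrophils gave 381 CPM in OE-Vector 1, within the OE-MLKL range of 189 to 405 CPM, and Keap1 gave 12.98 CPM, below 21.6, 30.95 and 21.5 CPM. Keap1 there stood at a log2 fold change of 0.68 ± 0.37 and did not pass. In cancer cells Keap1 of OE-Vector 1 was also below the OE-MLKL libraries (49.4 against 52.0 to 63.9 CPM), as were 33% of all genes. In macrophages it was above them (47.96 against 42.3 to 47.1 CPM), as were 18.5%. Bach1 was lower in OE-Vector 1 in macrophages alone, at 109 CPM against 156, 157 and 178 CPM. Its log2 fold change was 0.48 ± 0.28 and did not pass. The shares of all genes placed below in neutrophils and in macrophages were not counted.

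States of a class could be compared within each tumour, with library as a block, which needs no OE-Vector replicates. The targets and these tests were chosen with earlier results of these data known, so the calls are descriptions and no independent evidence. In macrophages, cells with at least 2 UMIs of Arg1, the arginase of tumour macrophages, were set against cells with none. Hmox1, Slc7a11, Srxn1, Gclm and Txnrd1 rose with Arg1, 5 of 7 targets tested, where 4.5% of all 11512 genes were called higher and 3.53% lower. Hmox1 gave 612, 799, 305 and 661 CPM with Arg1 in OE-Vector 1 and OE-MLKL 1, 2 and 3, against the 269, 225, 203 and 119.96 CPM given above without, a log2 fold change of 1.57 ± 0.20 (adjusted p by edgeR 1.60e-04). Slc7a11 gave 49.4, 92.5, 27.5 and 44.5 CPM against 24.8, 58.7, 17.6 and 16.5 CPM, at 0.97 ± 0.11 (adjusted p by edgeR 9.25e-05). Both were higher with Arg1 in all 4 libraries, and so were Srxn1, Gclm and Txnrd1. Srxn1 stood at 0.62 ± 0.13 (adjusted p by edgeR 0.00895), Gclm at 0.59 ± 0.13 (0.0103) and Txnrd1 at 0.31 ± 0.08 (0.0309). Gclc gave 0.21 ± 0.09 (adjusted p 0.196), and Osgin1 was higher with Arg1 in 2 of 4 libraries. The median over the 7 targets was 0.59, beside -0.01 over all genes.

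Cells with Arg1 were deeper. Their median was 5212 to 9570 UMIs, against 3595 to 6880 without. Among cells between the quartiles of depth, 3 targets passed, in a fit that called 604 of 10283 genes. Hmox1, Slc7a11 and Gclm kept their calls, while Srxn1 (0.17, adjusted p by edgeR 0.731) and Txnrd1 (0.09, adjusted p 0.716) did not. With doubled marker shares in the gates Hmox1 and Slc7a11 kept their calls, in a fit that called 473 of 10544 genes. Srxn1 (0.28, adjusted p by edgeR 0.484), Gclm (0.45, 0.0695) and Txnrd1 (0.19, 0.211) missed the threshold there. With DESeq2 Srxn1 (adjusted p 0.0994) and Txnrd1 (adjusted p 0.105) missed the threshold too, in a fit that called 442 of 11512 genes. Txnrd1 also missed the threshold without OE-Vector 1, without OE-MLKL 1 and without OE-MLKL 2, with adjusted p by edgeR of 0.0777 to 0.115, and without the deepest 5% of cells (0.24, adjusted p 0.0738). Without OE-MLKL 3, Srxn1 (0.52, adjusted p 0.109) and Gclm (0.48, adjusted p 0.0986) missed it. The summed neutrophil markers were 523 to 906 CPM with Arg1 and 387 to 843 CPM without, and were higher with Arg1 in every library. Of the 10 genes of the dissociation list Jun (-0.43 ± 0.07) and Egr1 (-0.28 ± 0.08) were lower with Arg1. Their part in the result was not tested.

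Of the other pathway genes 15 of 61 rose with Arg1 and 2 fell, where 4.5% of all genes were called higher and 3.53% lower. The 8 largest were Glrx (0.85 ± 0.08), a glutaredoxin, Prdx6 (0.77 ± 0.09), a peroxiredoxin, Ptgr1 (0.70 ± 0.16), Mgst1 (0.57 ± 0.14), a microsomal glutathione transferase, Gsr (0.57 ± 0.10), glutathione reductase, Cbr3 (-0.54 ± 0.15), Esd (0.51 ± 0.06) and Abcc1 (0.51 ± 0.10), an exporter of glutathione conjugates. The glutathione list had 5 of 14 higher and none lower, and the thioredoxin and peroxidase list 4 of 12 higher and 1 lower. The ferritin genes Fth1 (0.44 ± 0.08) and Ftl1 (0.31 ± 0.07) were the 2 called of 9 iron and haem genes, beside Hmox1, and are named after their values were seen. None of the 11 regulators passed. Nfe2l2 itself stood at -0.15 ± 0.06 (adjusted p by edgeR 0.139).

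**Figure D4:**
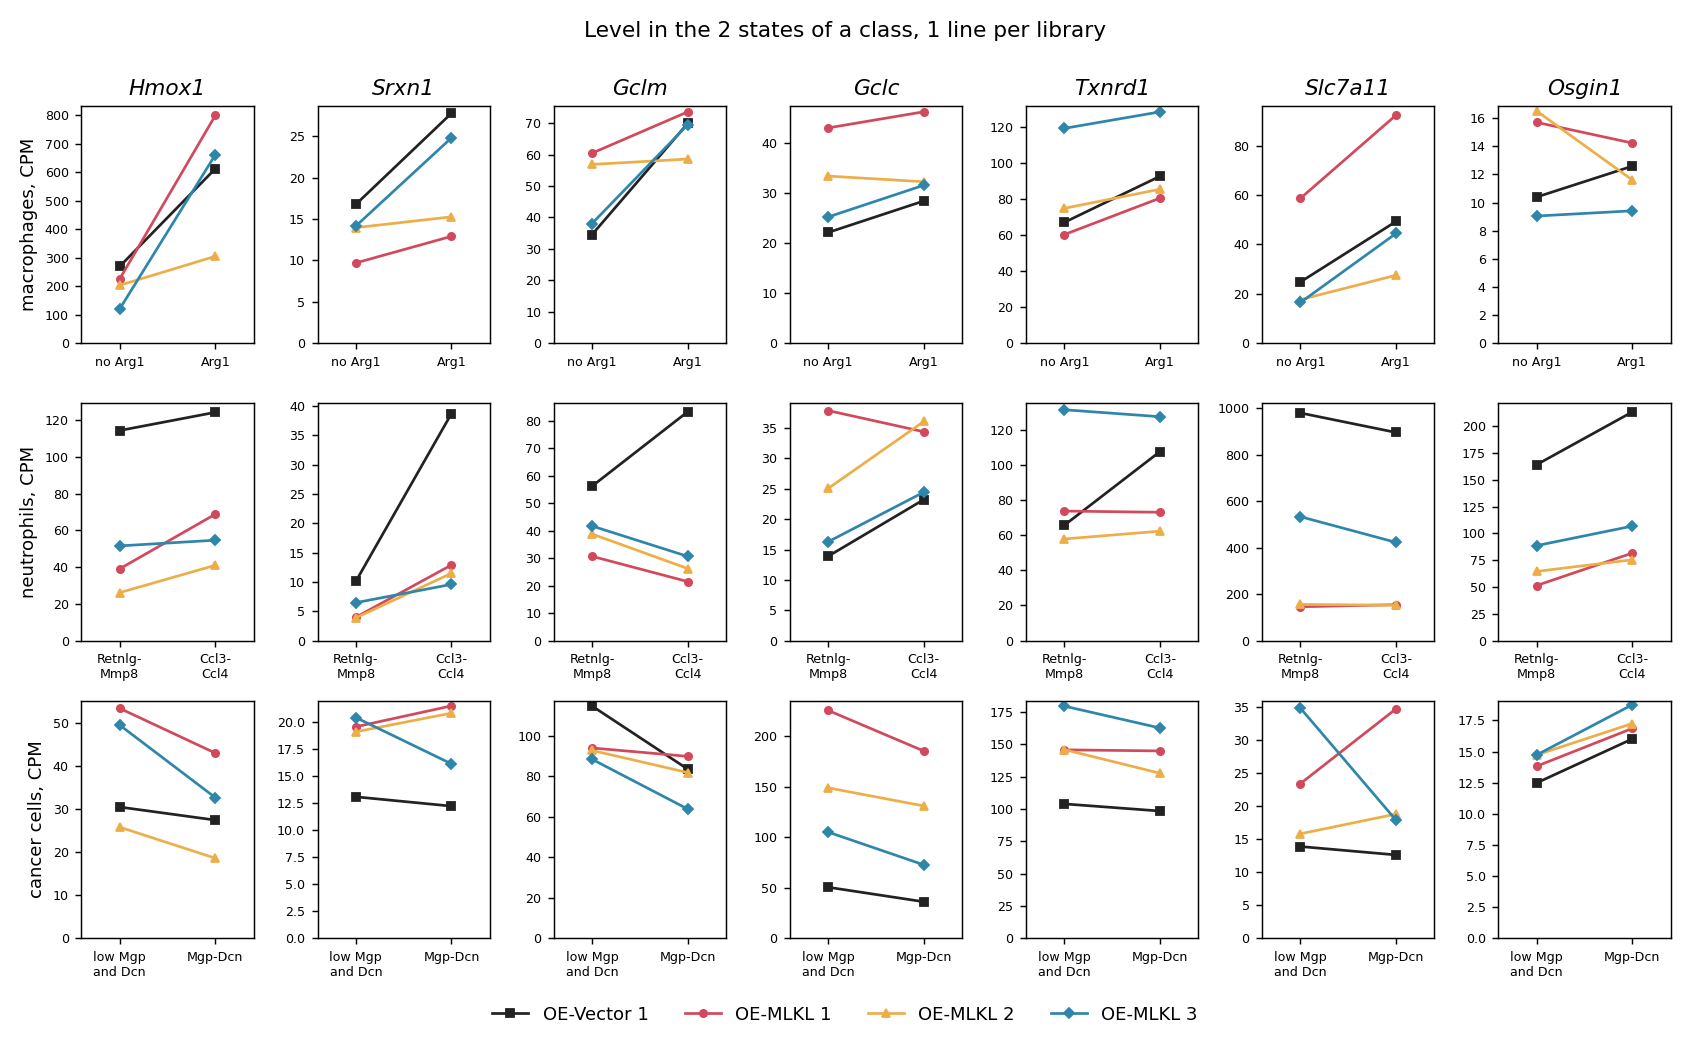
Level (CPM, linear axes from 0) of 7 targets in the 2 states of macrophages, neutrophils and cancer cells, 1 line per library. Hmox1 and Slc7a11 are higher with Arg1 in all 4 libraries, Srxn1 is higher in Ccl3-Ccl4 than in Retnlg-Mmp8 neutrophils in all 4, and Hmox1, Gclc and Gclm are lower in Mgp-Dcn cancer cells in all 4.

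Between the neutrophil states 2 of 7 targets tested passed. Srxn1 rose in Ccl3-Ccl4 against Retnlg-Mmp8 cells, as 8.07% of all 9309 genes did, and Slc7a11 fell, as 11.6% did. Srxn1 gave 38.7, 12.9, 11.5 and 9.58 CPM in Ccl3-Ccl4 cells and 10.1, 3.99, 3.88 and 6.47 CPM in Retnlg-Mmp8 cells, in the order OE-Vector 1 to OE-MLKL 3, a log2 fold change of 1.04 ± 0.28 (adjusted p by edgeR 0.0154). Without OE-Vector 1 it was 0.69 with an adjusted p by edgeR of 0.298. Slc7a11 stood at -0.43 ± 0.12 (adjusted p by edgeR 0.0199), though in CPM it was lower in Ccl3-Ccl4 cells of 3 libraries and higher in OE-MLKL 1 (155 against 146 CPM). It missed the threshold without OE-Vector 1 (adjusted p by edgeR 0.0734) and without OE-MLKL 3 (0.255). With scaling by library size alone it was -0.13 (adjusted p 0.412), where the median of all genes lay at 0.31 instead of 0.02 and 2447 genes were called higher and 490 lower instead of 751 and 1083. The directions of other genes in this comparison are relative to the main scaling. Neither Srxn1 nor Slc7a11 passed with DESeq2 (adjusted p 0.0709 and 0.0818) or between the depth quartiles (adjusted p by edgeR 0.156 and 0.0538). Srxn1 also missed the threshold under a depth minimum of 1000 UMIs per cell, with over 500 genes (0.95, adjusted p by edgeR 0.0537). The log2 fold changes of Gclm and Gclc were -0.38 ± 0.18 and 0.22 ± 0.19, with adjusted p by edgeR of 0.153 and 0.441. Without OE-Vector 1 Gclm stood at -0.74 with an adjusted p by edgeR of 0.0170.

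Of the other pathway genes 6 of 59 were higher in Ccl3-Ccl4 neutrophils and 11 lower, where 8.07% of all genes were called higher and 11.6% lower. The count of those higher is near the share of all genes. All 4 called genes of the NADPH list fell in Ccl3-Ccl4 cells, of 6 tested. They were Taldo1 (-1.38 ± 0.12), Pgd (-0.86 ± 0.13), G6pdx (-0.86 ± 0.18) and Tkt (-0.74 ± 0.12), enzymes of the pentose phosphate pathway, of which Pgd, G6pdx and Tkt are named beyond the 8 largest after their values were seen. The other large differences were Mgst1 (-1.84 ± 0.21), Txnrd2 (1.42 ± 0.33), mitochondrial thioredoxin reductase, Mgst2 (-1.22 ± 0.29), Glrx (-1.19 ± 0.15), the iron exporter Slc40a1 (-1.05 ± 0.14), the transferrin receptor Tfrc (1.05 ± 0.20) and Gstm1 (1.04 ± 0.18). Of the dissociation list Hspa1a, Atf3 and Jun were higher and Junb, Fos and Dusp1 lower in Ccl3-Ccl4 cells. Of the integrated stress list Ddit3 and Atf4 were higher and Sesn2 lower.

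In cancer cells, those with at least 0.1% of UMIs from Mgp and Dcn, which encode a matrix calcification inhibitor and a proteoglycan, were set against the others. Hmox1, Gclc and Gclm fell in the Mgp-Dcn cells and Osgin1 rose, where 8.03% of all 14887 genes were called lower and 7.79% higher. Gclc gave 36.0, 185, 131 and 72.5 CPM in Mgp-Dcn cells and 50.4, 225, 149 and 105 CPM in the others, at -0.34 ± 0.05 (adjusted p by edgeR 0.00164). Hmox1 stood at -0.39 ± 0.06 (adjusted p by edgeR 0.00188), Gclm at -0.27 ± 0.06 (0.0126) and Osgin1 at 0.29 ± 0.06 (0.0102). All 4 differences had 1 direction in every library. For Gclc the states differed by less than the libraries did within either state. Txnrd1 gave -0.11 ± 0.04 (adjusted p by edgeR 0.0884). Srxn1 and Slc7a11 were higher in 2 of 4 libraries each. Without OE-MLKL 3 Gclm missed the threshold (-0.22, adjusted p by edgeR 0.0755), and without OE-MLKL 2 Osgin1 did (0.31, adjusted p 0.0546). Osgin1 also missed it between the depth quartiles (0.27, adjusted p by edgeR 0.0659), where 3 targets passed, all lower, in a fit that called 1014 of 13621 genes. Mgp-Dcn cells were shallower in every library, with medians of 11514 to 21729 UMIs against 13001 to 26976 in the others. The part of depth in the result was not tested beyond these alternatives.

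Of the other pathway genes 14 of 63 were higher in Mgp-Dcn cancer cells and 6 lower, where 7.79% of all genes were called higher and 8.03% lower. The count of those lower is near the share of all genes. The 8 largest were Gpx2 (-1.498 ± 0.36), a glutathione peroxidase, the carbonyl reductases Cbr1 (0.61 ± 0.05) and Cbr3 (0.37 ± 0.07), Tfrc (-0.48 ± 0.09), Gstm1 (0.34 ± 0.04), the malic enzyme Me1 (0.31 ± 0.05), Mgst1 (0.30 ± 0.04) and Esd (-0.29 ± 0.06). Bach1 was higher, at 0.19 ± 0.05 (adjusted p by edgeR 0.0289), and Nfe2l2 and Keap1 did not pass. The fibroblast markers summed to 256 to 412 CPM in Mgp-Dcn cells and 180 to 305 CPM in the others, higher in every library, and of the dissociation list 6 of 10 genes were higher. Of the 8 genes of the integrated stress list 3 were called lower, Trib3 (-1.41 ± 0.31), Asns (-1.05 ± 0.11) and Gdf15 (-0.42 ± 0.10), the gene most like Gclm, and 1 higher, Ppp1r15a (0.15 ± 0.04), with a median log2 fold change of -0.34 beside 0.01 over all genes. The part of these lists in the result was not tested.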

How the data were processed

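Single-cell RNA of 4 tumours was read as UMI counts, deposited by the authors before any filter or normalisation, with a list of 32285 genes that all libraries share. The submitters' processing notes name Cell Ranger 2.1.1 and mm10, while the file headers and the study's methods name other versions, and whether UMIs in introns were counted is not given in the sources used here. Depth was 150591289 to 169978362 UMIs per library, which limits the precision of low genes in neutrophils.

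A barcode was kept with at least 500 UMIs, more than 200 genes, under 10% mitochondrial and at most 5% haemoglobin UMIs. Classes were set by the share of UMIs in marker lists. Cells that met 2 classes were removed, which served as the doublet step, and no doublet caller was run. UMIs were summed per library and class. Sums were tested with edgeR 4.0.16 (quasi-likelihood, TMM, filterByExpr, Benjamini-Hochberg at 0.05) in R 4.3.3, group comparisons with 2, state comparisons (library as block) with 3 and the interaction with 6 residual degrees of freedom. Standard errors follow from the fold change and its F statistic. The fits were tested on simulated data first. DESeq2 1.42.0, other scaling and filters, other cell filters and leaving out libraries were alternatives. Group differences within a state and cells between the depth quartiles were added after seeing the data. Gene positions are from GENCODE vM21 (GRCm38). Labels do not say whether the tumours of a group are independent experiments, so p-values refer to these samples only. In the group tests the spread is that of the OE-MLKL libraries alone. In the state tests it is the scatter of the state difference between libraries. The spread between OE-Vector tumours was not measured.

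The 8 genes, the pathway lists and the tests were chosen with earlier results of these data known. Named were the 8 genes, Nfe2l2, Keap1 and Bach1, of the pathway lists the 8 called genes with the largest log2 fold change in each comparison, and the 3 genes most like each target among those with a mean of at least 10 CPM, of which 2 are not reported here. Fold changes within 1 standard error of 0 are given as levels only.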

Additional observations from a re-analysis of the deposited data

Results flagged for a closer look

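For 3 of the 7 targets tested every OE-MLKL library lay on 1 side of OE-Vector 1 in cancer cells and on the other side in another class, an arrangement that 10.5% of all genes tested showed. Nqo1, too low to test, was also placed this way in neutrophils and T cells. For Srxn1 the log2 difference between the labels, minus that in cancer cells, was -1.39 in macrophages, -2.71 in neutrophils and -1.24 in T cells, and the interaction test of edgeR over the 4 classes gave an unadjusted p of 7.32e-05 and an adjusted p of 0.0604. For Slc7a11 the value was -2.99 in neutrophils and -2.35 in T cells (adjusted p by edgeR 0.450), and for Osgin1 it was -2.03 in neutrophils (adjusted p by edgeR 0.521). None passed. All rest on the same OE-Vector library.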

How the results depend on the processing

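The number of targets called between the labelled groups was 0 in each class. By leaving out 1 OE-MLKL library it ranged from 0 to 1 in cancer cells, from 0 to 5 in neutrophils and from 0 to 2 in T cells, stayed at 0 in macrophages, and ranged from 0 to 7 for the interaction of class and group. Where it was above 0, the highest value came without OE-MLKL 3. With DESeq2 it was 2 in neutrophils and 4 for the interaction, and with every gene that has a UMI it was 5 for the interaction. With Arg1 the number was 5, and it was 3 to 4 without 1 library, 3 with DESeq2, 3 between the depth quartiles and 2 with doubled marker shares in the gates. Between neutrophil states it was 2, and it was 1 to 2 without 1 library, 0 with DESeq2, 1 with scaling by library size alone, 1 with cells of at least 1000 UMIs and over 500 genes, and 0 between the depth quartiles. Without OE-Vector 1 the 1 target called there was Gclm, and neither Srxn1 nor Slc7a11 passed. In Mgp-Dcn cancer cells it was 4, and 3 to 5 without 1 library. A like number does not say that the same targets were called. The cause of these shifts was not tested.

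Counts over all genes moved by more than 1.5 times as well. Against 1, 4, 0 and 6 genes in cancer cells, macrophages, neutrophils and T cells, DESeq2 called 115, 73, 81 and 13, and leaving out 1 OE-MLKL library gave 91 to 604, 6 to 114, 0 to 1828 and 41 to 788. With every gene that has a UMI the counts were 1, 18, 9 and 161, with doubled marker shares 1, 12, 0 and 1, and between the depth quartiles 1, 0, 0 and 0. At least 1000 UMIs, shared barcodes left out, the deepest 5% left out and scaling by library size gave 3 in T cells, and scaling by library size gave 0 in cancer cells. The interaction gave 13 genes, 260 with DESeq2, 267 with every gene that has a UMI, 1 with doubled marker shares, 1 between the depth quartiles and 3 to 1377 without 1 library. With Arg1 924 genes were called, 442 with DESeq2, 473 with doubled marker shares, 604 between the depth quartiles and 460 to 838 without 1 library. The neutrophil states gave 1834, with 1020 by DESeq2, 1208 between the depth quartiles, 2937 with scaling by library size and 923 to 1831 without 1 library. Mgp-Dcn cells gave 2355, with 1014 between the depth quartiles and 1025 to 2015 without 1 library. Scaling by library size moved the median log2 fold change of all genes in neutrophils from 0.04 to 0.28.

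Each fold change larger than its standard error kept its sign under every alternative run. The 20 fold changes within their standard error of 0 took the other sign in 51 of 239 refits. Mean levels of the targets moved by less than 1 SD between libraries in all 160 comparisons with another cell filter, a wide measure that leaves room for sizeable shifts. With doubled marker shares in the gates, Hmox1 in macrophages averaged 313 CPM instead of 416 CPM (SD 105). Slc7a11 in macrophages then averaged 28.5 CPM instead of 42.6 CPM (SD 22.6). No paired analysis was possible because the OE-Vector and OE-MLKL libraries analysed here share only replicate number 1. Low counts limit what can be read of Nqo1 in all classes and of Srxn1 in neutrophil states.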
